A study of Mus musculus with 26 samples.

Results

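The TAM receptors are the 3 receptor tyrosine kinases TYRO3, AXL and MERTK, and their 2 ligands are GAS6 and protein S. The 5 genes that encode them in the mouse, Mertk, Axl, Tyro3, Gas6 and Pros1, were chosen as a family, after an earlier look at these data had shown Mertk higher under dexamethasone in most wild-type cultures. They are 5 of the 19505 named genes measured, all 5 were measured, and each was read by 1 transcript cluster (the set of probes that reports 1 gene on the array). The difference of Mertk between dexamethasone and vehicle in wild-type cells is therefore a description here and carries no test.

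The arrays came from neural stem and progenitor cells grown from the telencephalon of C57BL/6 mice at postnatal day 0, which other labels of the same samples call fetal or embryonic. The synthetic glucocorticoid dexamethasone (Dex) at 100 nM, or its ethanol vehicle, was in the medium for 4 h after passage 3. The groups were SOX2 knockout (KO) cells with Dex (n = 7), SOX2 KO cells with vehicle (n = 7), wild-type (WT) cells with Dex (n = 6) and WT cells with vehicle (n = 6), so that each of the 13 cultures gave 1 Dex and 1 vehicle array. Cultures of different animals were kept apart, and the cultures are numbered 1 to 6 in WT and 7 to 13 in SOX2 KO. How and in which cells Sox2 was deleted is not given in the sources used here. All groups were grown with EGF and FGF-1.

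TAM receptors recognise phosphatidylserine on dying cells and membrane debris, not directly but through GAS6 or protein S, whose vitamin K-dependent Gla domains bind the lipid while their other end binds the receptor. AXL is activated by GAS6, whereas MERTK and TYRO3 respond to both ligands. In macrophages, MERTK drives the engulfment of apoptotic cells and its level is raised by glucocorticoids. In the mouse brain, MERTK and AXL are known from microglia, MERTK also from astrocytes, and TYRO3 mainly from neurons.

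On GRCm38.p6 RefSeq places Mertk at chr2:128698915-128803162, Tyro3 at chr2:119797740-119818104, Axl at chr7:25756500-25788924, Gas6 at chr8:13465374-13494535 and Pros1 at chr16:62854307-62929346. RefSeq promoter windows, each running from 250 bases before to 50 bases after a gene start, were found for all 5 genes. The 250 upstream bases are printed for Mertk, the receptor gene with the largest Dex difference of the 5, and for Axl, the receptor gene whose array levels varied most closely with those of Mertk. The Mertk bases are chr2:128698665-128698914 on the plus strand and the Axl bases are chr7:25788734-25788983 on the minus strand. Both run 5′ to 3′, and capitals mark the GC box GGGCGG or its reverse complement CCGCCC. The Axl and Tyro3 windows are placed on starts that lie inside the gene record, 191 and 1774 bases downstream of its outer 5′ end.
Mertk: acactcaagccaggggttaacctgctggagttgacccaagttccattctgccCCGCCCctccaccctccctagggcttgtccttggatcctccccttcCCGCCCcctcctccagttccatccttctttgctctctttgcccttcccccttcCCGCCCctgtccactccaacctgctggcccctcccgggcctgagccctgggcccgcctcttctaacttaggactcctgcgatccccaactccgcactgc
Axl: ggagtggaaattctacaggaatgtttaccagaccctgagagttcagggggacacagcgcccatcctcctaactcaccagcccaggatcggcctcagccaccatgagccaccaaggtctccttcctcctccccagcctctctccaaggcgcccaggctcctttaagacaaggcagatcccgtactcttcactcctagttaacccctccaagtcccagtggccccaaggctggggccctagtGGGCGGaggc
On either strand, the glucocorticoid response element, here the hexamer AGAACA followed after 3 bases by its reverse complement TGTTCT, was found in 0 of the 5 windows and in 0.00914% of the 32817 windows in the table. The hexamer alone was found only in the Tyro3 window, once, and in 19% of all windows. The SOX motif CATTGTT was found in 0 of the 5 windows and in 3.78% of all. The GC box occurred in all 5 windows, with 4 matches for Mertk, 2 for Axl, 6 for Tyro3, 4 for Gas6 and 5 for Pros1, some of them overlapping, and it occurred in 35.6% of all windows. These matches describe letters in a window of 300 bases and say nothing on binding.

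Levels are log2 units as deposited, so a difference of 1 unit is a factor of 2 if the base is 2, as taken here. Array medians lay between 6.44 and 6.84, but upper quartiles ranged from 9.38 to 10.43, and by overall profile the cultures form 3 array clusters, which no label names. In cluster 1 are cultures 1, 2, 3, 7 and 8, in cluster 2 are cultures 4, 10 and 12, and in cluster 3 are cultures 5, 6, 9, 11 and 13. Sox2 averaged 4.65 ± 0.51 in SOX2 KO and 13.40 ± 0.70 in WT vehicle arrays (SD, n = 7 and n = 6). In 12 of the 13 cultures, all but culture 4, the Dex array was above the vehicle array for Fkbp5, Per1 and Tsc22d3, which are glucocorticoid-induced genes. In WT culture 4, Dex minus vehicle by the labels was -2.03 for Fkbp5, -2.74 for Per1 and -1.67 for Tsc22d3, so results are given with and without that culture. Whether the labels of its 2 arrays were exchanged was not tested, and an exchange would turn the sign of each Dex difference in this culture and move the WT means with Dex and with vehicle. Nestin and the other 7 markers of neural stem and progenitor cells had a mean level of 11.76 to 12.76 on every array. The 13 microglia and macrophage markers measured had mean levels of 4.57 to 5.30 in SOX2 KO Dex, 4.45 to 5.16 in SOX2 KO vehicle, 4.69 to 5.10 in WT Dex and 4.61 to 5.18 in WT vehicle arrays, and 10 of the 13 never exceeded the median of their own array.

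Mertk, the receptor for engulfment of apoptotic cells, was higher with Dex than with vehicle in 6 of 7 SOX2 KO cultures and in 5 of 6 WT cultures. The other 4 genes were split, with at most 5 of 7 SOX2 KO and 4 of 6 WT cultures moving 1 way. The WT count of Mertk is not independent of its choice. Mertk had the lowest level of 7.56, the median of 9.86 and the highest of 10.99 in SOX2 KO Dex arrays, against 7.31, 7.93 and 8.85 in SOX2 KO vehicle arrays. In WT Dex arrays the lowest, median and highest Mertk levels were 7.95, 9.34 and 10.76, against 6.68, 8.02 and 10.06 in WT vehicle arrays. The Dex and vehicle groups overlapped in both genotypes, and the difference is given next within each culture.

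**Figure D1:**
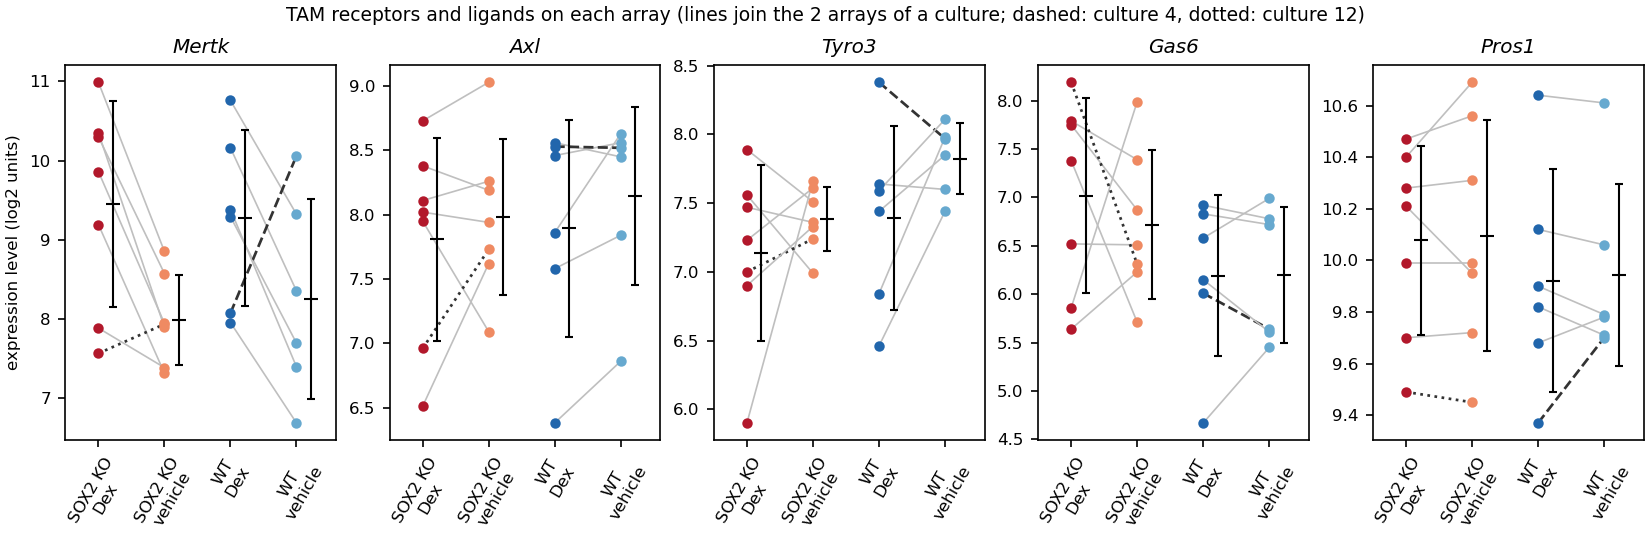
Expression level (log2 units) of Mertk, Axl, Tyro3, Gas6 and Pros1 on each array, by group. Points are arrays, lines join the 2 arrays of a culture (dashed for culture 4, dotted for culture 12), and bars show the mean ± SD of 7 SOX2 KO or 6 WT arrays. Mertk lines slope down from Dex to vehicle in 6 of 7 SOX2 KO cultures. They also do so in 5 of 6 WT cultures, where Mertk was known to be higher when it was chosen. The Pros1 lines are nearly flat.

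Between the 2 arrays of a SOX2 KO culture, Mertk was 2.14, 1.73, 1.88, 1.92, 0.50 and 2.46 units higher with Dex in cultures 7, 8, 9, 10, 11 and 13. In culture 12 it was -0.37, although Fkbp5, Per1 and Tsc22d3 were higher with Dex there too. Cultures 11 and 12 thus lie apart from the other 5, which span 1.73 to 2.46. The mean difference over the 7 cultures was 1.47 ± 1.02 units (SD), a 2.76-fold difference, and 1.77 ± 0.67 without culture 12 (n = 6). The markers of neural stem and progenitor cells also differed most in culture 12. Their mean difference was -0.77 there, with 0 of 8 higher with Dex, and -0.43 in culture 11, against -0.35 to 0.13 in the other 5 SOX2 KO cultures and -0.38 to 0.09 in WT. Over SOX2 KO the median of the 8 fitted differences was -0.35, beside -0.02 over all genes, and none of the 8 passed. The microglia and macrophage markers differed by 0.54 in culture 12 (9 of 13 higher with Dex) and 0.20 in culture 11 (7 of 13), against -0.15 to 0.12 in the other 5. In WT they ran from -0.22 to 0.20, and the 0.20 was in culture 5 (10 of 13), where Mertk was 1.99 higher with Dex. Other marker lists moved too. The neuron markers averaged 8.865 with vehicle and 8.33 with Dex in culture 12. In culture 7 the oligodendrocyte lineage markers averaged 9.83 with vehicle and 8.35 with Dex. The part of any list in the Mertk difference was not tested. Among all genes, 5.31% were higher with Dex in at least 6 of the 7 SOX2 KO cultures.

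In limma, with 1 mean per group and no block, the Mertk difference in SOX2 KO was 1.47 ± 0.52 (SE), with a 95% confidence interval of 0.41 to 2.52, and it did not pass adjustment over all genes (adjusted p = 0.999, unadjusted p = 0.00818). In that fit 10 of 19505 genes passed (0.0513%), and 0 of the 5 TAM genes, and 3 to 16 genes passed when each culture was left out in turn. With the culture as a block the limma adjusted p for Mertk was 0.286, and 0.0718% of genes passed. With the block and without culture 4, the SE was 0.26 and Mertk passed as the only TAM gene (limma adjusted p = 0.018), beside 0.251% of all genes. The WT culture 4 enters the SOX2 KO comparison only through the shared estimate of spread. Without culture 4, that spread rests in part on the WT rise by which Mertk was chosen. The limma adjusted p of 0.018 is therefore not independent of that choice and cannot serve as support. In a fit with the block on SOX2 KO arrays alone the limma adjusted p was 0.154. With the block and without cultures 4 and 12 the limma adjusted p was 0.000107, at a difference of 1.77. Culture 12 is the only SOX2 KO culture where Mertk was lower with Dex, and it was left out after that was seen. This last p therefore cannot serve as support for a Mertk difference either.

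In WT, Mertk was 1.81, 1.60, 1.44, 1.99 and 1.27 units higher with Dex in cultures 1, 2, 3, 5 and 6, and Dex minus vehicle by the labels was -1.99 in culture 4. The mean over the 6 cultures was 1.02 ± 1.50 (SD), which is 2.03-fold. Without culture 4 it was 1.62 ± 0.29 (n = 5), which is 3.08-fold. The sign in culture 4 was turned for Mertk as it was for the 3 glucocorticoid-induced genes. Over all genes, 5.03% were higher with Dex in each of the 5 WT cultures other than 4, and Mertk was known to be higher there when it was chosen.

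The size of the Mertk difference was set beside that of the 3 glucocorticoid-induced genes culture by culture. Over the 13 cultures its Dex difference correlated with that of Fkbp5, Per1 and Tsc22d3 at r = 0.77, 0.77 and 0.72. Without culture 4 the coefficients were 0.13, 0.04 and 0.10 over 12 cultures, so the relation rests on that culture. The Dex differences within a culture share its 2 arrays, and these coefficients are descriptions.

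**Figure D2:**
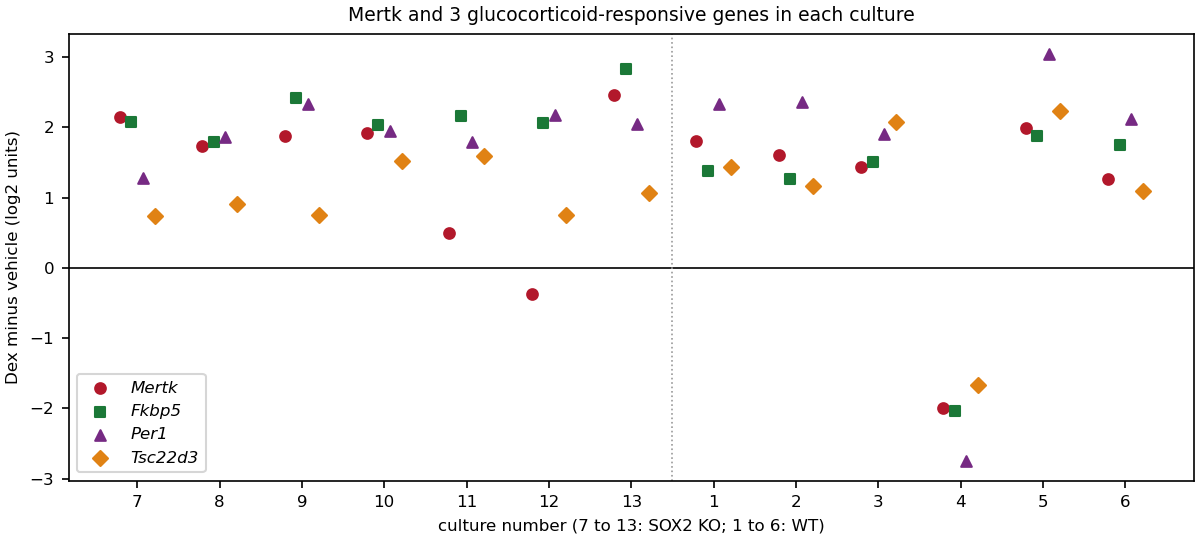
Dex minus vehicle (log2 units, vertical axis) of Mertk and of the glucocorticoid-induced genes Fkbp5, Per1 and Tsc22d3 in each culture (horizontal axis, SOX2 KO cultures 7 to 13 left of WT cultures 1 to 6). All 4 genes are below 0 in culture 4, and in culture 12 only Mertk is, at -0.37.

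The Mertk responses of the genotypes were set side by side. The difference of the Dex effects, SOX2 KO minus WT, was 0.45, and -0.16 without culture 4. It subtracts the WT difference on which Mertk was chosen, so it too is a description with no test. Over all genes, 0 of 19505 (0%) passed for the difference of the Dex effects, with 140 at an unadjusted limma p under 0.05. Within array clusters 1 and 3 the mean Mertk difference was 1.94 and 1.61 in SOX2 KO (n = 2 and n = 3), against 1.62 and 1.63 in WT (n = 3 and n = 2). In cluster 2 it was 0.78 in SOX2 KO (n = 2) and -1.99 in the single WT culture, culture 4.

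Axl encodes the receptor that binds GAS6. Its lowest, median and highest levels were 6.51, 8.02 and 8.73 in SOX2 KO Dex arrays, against 7.09, 7.94 and 9.03 in SOX2 KO vehicle arrays. In WT they were 6.38, 8.16 and 8.56 with Dex, against 6.86, 8.49 and 8.63 with vehicle. The groups overlapped almost wholly, and Axl was higher with Dex in 3 of 7 SOX2 KO and 2 of 6 WT cultures. The limma difference was -0.17 ± 0.36 in SOX2 KO (95% interval -0.90 to 0.56) and -0.25 ± 0.39 in WT (-1.04 to 0.54). With the culture as a block the intervals were -0.56 to 0.22 and -0.67 to 0.17. All 4 intervals end below the mean Mertk difference of 1.47 units in SOX2 KO, but that mean has an interval of its own. Without the block it was 0.41 to 2.52 and overlapped both Axl intervals, and with the block it was 0.65 to 2.29 and lay above both. Mertk and Axl were not tested against each other.

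Tyro3, the receptor known from neurons, had the lowest, median and highest levels of 5.90, 7.23 and 7.89 in SOX2 KO Dex arrays, against 6.99, 7.36 and 7.66 in SOX2 KO vehicle arrays. In WT these were 6.46, 7.52 and 8.38 with Dex, against 7.44, 7.91 and 8.11 with vehicle. The Dex arrays spread further than the vehicle arrays in both genotypes, with a range of 1.99 against 0.67 in SOX2 KO and 1.92 against 0.67 in WT. Each Dex range rests largely on 1 array, and it was 0.99 against 0.62 without SOX2 KO culture 11 and 1.18 against 0.67 without WT culture 4. The limma difference was -0.25 ± 0.26 in SOX2 KO and -0.43 ± 0.28 in WT. Culture 11 of SOX2 KO, at -1.76, was far below the others, which ran from -0.43 to 0.57, and without it the SOX2 KO mean was 0.00. In WT, Tyro3 was lower with Dex in 4 of the 5 cultures other than 4, with differences from -1.14 to -0.41, and was 0.04 higher in culture 3. In culture 4, where the glucocorticoid-induced genes are reversed, Tyro3 was 0.41 higher in the array labelled Dex. Without culture 4 and with the block the WT difference was -0.60 ± 0.26, with an unadjusted p of 0.0345 and a limma adjusted p of 0.986. In that fit 962 of 19505 genes had an unadjusted limma p under 0.05.

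Of the ligands, Gas6 had a lowest, median and highest level of 5.64, 7.38 and 8.19 in SOX2 KO Dex arrays, against 5.71, 6.51 and 7.99 in SOX2 KO vehicle arrays. In WT these were 4.67, 6.37 and 6.92 with Dex, against 5.45, 6.18 and 6.99 with vehicle. Both WT medians of Gas6 lie below the lowest array median, 6.44. Its response went in opposite directions in different SOX2 KO cultures, from -2.13 in culture 7 to 1.88 in culture 12, with an SD of 1.38 over the 7 differences and of 0.50 over the 6 in WT. The limma difference was 0.30 ± 0.41 in SOX2 KO and -0.01 ± 0.44 in WT, and neither passed. Culture 12, where Mertk was lower with Dex, had the largest Gas6 increase, and without it the mean in SOX2 KO was 0.04 ± 1.31 (SD, n = 6). Leaving out culture 9 gave 0.075, and leaving out culture 7 gave 0.71.

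Pros1, which encodes protein S, was the steadiest of the 5 genes between treatments. Its lowest, median and highest levels were 9.49, 10.21 and 10.47 in SOX2 KO Dex arrays, against 9.45, 9.99 and 10.69 in SOX2 KO vehicle arrays. In WT they were 9.37, 9.86 and 10.64 with Dex, against 9.70, 9.79 and 10.61 with vehicle. Its Dex differences in the 13 cultures ran from -0.33 to 0.26. With the culture as a block the limma difference was -0.02 ± 0.11 in SOX2 KO (95% interval -0.25 to 0.21) and -0.02 ± 0.12 in WT (-0.27 to 0.23). In WT, 0 of 19505 genes passed for Dex (0%), with and without the block, and 188 had an unadjusted limma p under 0.05 without it. None of the 4 TAM genes tested there was among these 188. With the block and without culture 4, 0.169% of genes passed in WT, and 0 of these 4.

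**Figure D3:**
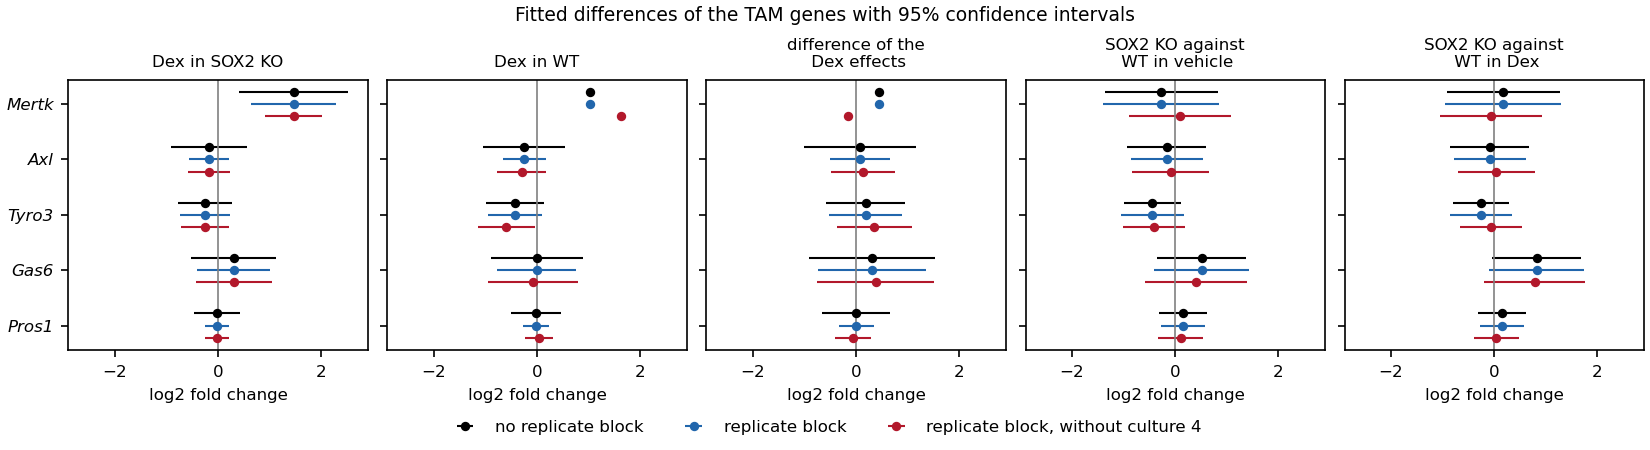
Log2 fold change of each TAM gene (horizontal axis) in 5 comparisons, with 95% confidence intervals as lines. Black is the limma fit without a block, blue the fit with a block for culture, and red the blocked fit without culture 4. Mertk is shown without an interval in WT and in the difference of the Dex effects, because it was chosen on its WT difference. Mertk in SOX2 KO is the gene whose intervals stay above 0 in all 3 fits. Its red interval takes part of its spread from the WT rise by which Mertk was chosen.

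How far a culture kept its place between treatments was described for each of the 5 genes. For Pros1 the vehicle and Dex levels of a culture, each taken from its group mean, correlated at r = 0.91 over 13 cultures. For Axl r was 0.76, for Mertk 0.35, for Gas6 0.19 and for Tyro3 0.03. The SD of the culture means was 0.38 for Pros1 and 0.66 for Axl, larger than the SD of their Dex differences at 0.16 and 0.50. For Mertk (0.86 and 1.20), Tyro3 (0.34 and 0.66) and Gas6 (0.62 and 1.03) the Dex differences varied more than the culture means. These are descriptions over cultures that also differ in array cluster. On cluster 1 arrays the median Axl level was 8.51, against 8.19 on cluster 2 and 7.60 on cluster 3. For Pros1 the medians were 10.44, 9.60 and 9.80, and for Mertk 9.31, 8.01 and 7.89. The part of the clusters in the spread was not tested.

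Over the 26 arrays with group means removed, Mertk and Axl varied together at r = 0.73, and at 0.83 without culture 4. Mertk and Pros1 followed at 0.51, and Axl and Tyro3 at 0.43. Mertk with Tyro3 was at 0.10 and Mertk with Gas6 at 0.03. The arrays of a culture and of a cluster share their signal distribution, so these values are given without a test.

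Without SOX2, no TAM gene passed the threshold in either treatment. In vehicle, 109 of 19505 genes passed between SOX2 KO and WT (0.559%), and 0 of the 5 TAM genes, also at an unadjusted p under 0.05. With Dex, 110 genes passed (0.564%), again with 0 of the 5 and none at an unadjusted p under 0.05. These comparisons use the same arrays as the Dex comparisons and are not independent of them.

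Gas6 had a larger genotype difference than the other 4 genes in the fit without a block, but none passed. It averaged 7.02 ± 1.01 in SOX2 KO and 6.19 ± 0.83 in WT arrays with Dex (SD, n = 7 and n = 6), and 6.72 ± 0.77 in SOX2 KO and 6.20 ± 0.70 in WT arrays with vehicle. Both WT means lie below the lowest array median of 6.44, so the difference is read at low levels. The limma difference with Dex was 0.83 ± 0.42 (95% interval -0.04 to 1.69, adjusted p = 0.704), and with vehicle it was 0.52 ± 0.42 (-0.34 to 1.38, adjusted p = 1). With array weights it was 0.23 with Dex and 0.026 with vehicle. The groups overlapped in both treatments. Within array clusters 1, 2 and 3 the Gas6 difference was 0.03, 1.98 and 1.10 with Dex and 0.60, 1.21 and 0.62 with vehicle, where cluster 2 has culture 4 as its only WT culture. The sign was the same in each cluster, but with Dex the cluster 1 difference was only 0.03, and each value rests on few cultures.

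Tyro3 averaged 7.39 ± 0.23 in SOX2 KO and 7.83 ± 0.26 in WT vehicle arrays, a limma difference of -0.44 ± 0.27 (95% interval -0.98 to 0.11). With Dex the difference was -0.26 ± 0.27, and -0.06 without culture 4. In vehicle it was -0.33, -0.60 and -0.45 within clusters 1, 2 and 3, and with Dex 0.04, -0.94 and -0.24. Tyro3 was lower in SOX2 KO in each cluster without Dex, and the groups overlapped.

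For Mertk the genotype difference in vehicle was -0.27 ± 0.54 (SE), and 0.10 without culture 4, whose array labelled vehicle is the highest Mertk value in WT vehicle (10.06). Within clusters 1 and 3, which do not hold that culture, Mertk was 0.26 and 0.49 higher in SOX2 KO with vehicle and 0.58 and 0.48 higher with Dex. Over all cultures the genotype difference with Dex was 0.18 ± 0.54 (95% interval -0.92 to 1.28), and it lay between -0.08 and -0.06 when culture 4, 6 or 7 was left out. For Mertk both genotype comparisons use WT arrays on which it was chosen, so neither is independent of that choice. Axl differed by -0.16 ± 0.37 in vehicle and -0.09 ± 0.37 with Dex, where its sign turned, to at most 0.13, when culture 2, 3, 4, 11 or 12 was left out. Pros1 differed by 0.15 ± 0.23 in vehicle and 0.16 ± 0.23 with Dex. Neither gene passed in either treatment.

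Genes that act with the TAM receptors were read from 5 lists of 80 genes in all, chosen with earlier results of these data known. They cover other phosphatidylserine receptors and bridging molecules (21 of 21 measured), engulfment machinery and scramblases (14 of 15), the vitamin K cycle and other Gla proteins (17 of 17), sheddases and furin (4 of 4) and TAM adaptors and signalling (21 of 23). In the 2 Dex comparisons no measured gene of these lists passed without the block, or with it over all 13 cultures. The median difference of the phosphatidylserine receptor list was -0.05 in SOX2 KO and 0.00 in WT, beside -0.02 and 0.00 over all genes. For the adaptor list it was -0.06 in SOX2 KO and 0.06 in WT, and for the engulfment list -0.06 and -0.03. For the vitamin K list it was -0.10 in SOX2 KO and 0.05 in WT, and for the sheddases -0.08 and -0.05. Between genotypes, 1 phosphatidylserine receptor gene fell, 0 rose, and none of the other 4 lists had a gene that passed. The list medians, in the order above, were 0.04, -0.14, -0.01, 0.01 and -0.03 in vehicle, beside -0.03 over all genes, and -0.08, -0.11, -0.12, -0.11 and -0.11 with Dex, beside -0.06 over all genes.

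Itgb5, the integrin β5 subunit that pairs with αv to bind the bridging protein MFG-E8, was that gene, and it was lower in SOX2 KO in both treatments. Its lowest, median and highest levels were 6.76, 8.22 and 8.94 in SOX2 KO vehicle arrays, against 9.47, 10.15 and 10.36 in WT vehicle arrays. With Dex they were 7.48, 8.44 and 9.04 in SOX2 KO arrays, against 9.32, 10.46 and 10.86 in WT arrays. The genotypes did not overlap in either treatment, which held for 0.518% of all genes in vehicle and 0.482% with Dex.

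The Itgb5 difference was -2.02 ± 0.31 log2 units in vehicle (limma adjusted p = 0.000538) and -1.77 ± 0.31 with Dex (limma adjusted p = 0.00275). Cluster by cluster, from 1 to 3, it was -1.41, -2.81 and -1.72 in vehicle and -1.73, -1.38 and -1.51 with Dex. Its partner Itgav differed by -0.21 ± 0.27 in vehicle and -0.16 ± 0.27 with Dex, and Mfge8, which encodes MFG-E8, by 0.63 ± 0.36 and 0.30 ± 0.36, and none of these 4 values passed. The astrocyte markers Aldoc, an aldolase, and Slc1a2, a glutamate transporter, also fell in SOX2 KO. Their differences were -1.71 and -2.03 in vehicle and -1.40 and -2.08 with Dex, while the other 6 of 8 markers did not pass. The summed level of the 8 astrocyte markers was 77.42 to 86.95 in SOX2 KO and 76.18 to 89.89 in WT vehicle arrays, and 75.78 to 87.16 in SOX2 KO and 75.88 to 90.72 in WT Dex arrays, and their part in the Itgb5 difference was not tested. In bulk RNA, fewer cells of a type and less RNA per cell cannot be told apart.

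Among the engulfment genes, Atp11a, a phosphatidylserine flippase, averaged 11.25 ± 0.49 in SOX2 KO and 12.04 ± 0.14 in WT vehicle arrays (SD), a difference of -0.79 ± 0.21 that did not pass (limma adjusted p = 0.104). It passed with quantile normalization (limma adjusted p = 0.0206), array weights (0.00888), the array cluster as a covariate (0.012) and without culture 8 (0.0316). With Dex its difference was -0.43 ± 0.21, which passed with array weights alone, at -0.66 (limma adjusted p = 0.0419). Pik3r1, the p85α subunit of phosphoinositide 3-kinase, was higher with Dex in 6 of 7 SOX2 KO cultures and in each of the 5 WT cultures other than 4, and it differed by -0.95 in culture 4. Its limma differences of 0.55 ± 0.22 in SOX2 KO and 0.41 ± 0.24 in WT did not pass. Both passed in the blocked fit that leaves out cultures 4 and 12, at 0.78 in SOX2 KO and 0.69 in WT (limma adjusted p = 0.00346 and 0.0273), and so did SOX2 KO with array weights (0.0336). Cultures 4 and 12 are the ones where Pik3r1 was lower with Dex, and that fit was chosen after the data were seen. Passing in the fit without them therefore cannot serve as support. Cd36, a scavenger receptor for phosphatidylserine and lipids, differed with Dex in SOX2 KO by -0.68 ± 0.26 (limma adjusted p = 0.999). With the block the SE was 0.16 and the limma adjusted p 0.17, which did not pass either. Its SOX2 KO means of 5.27 with Dex and 5.95 with vehicle lie below the lowest array median of 6.44. Ggcx, the carboxylase that forms the Gla residues of GAS6 and protein S, differed by -0.38 ± 0.24 with Dex in SOX2 KO, and Mmp14, a membrane protease, by -0.51 ± 0.54.

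**Figure D4:**
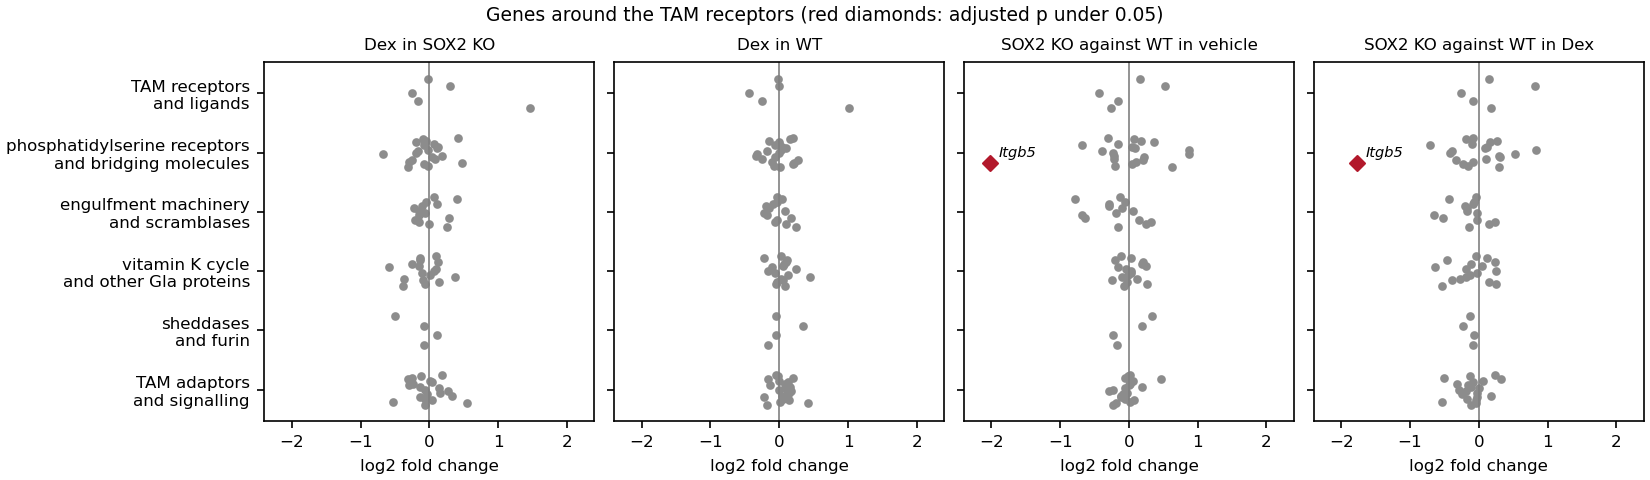
Log2 fold change (horizontal axis) of the TAM genes and of each measured gene of the 5 lists in 4 comparisons, from the limma fit without a block. Each point is a gene, and red diamonds passed an adjusted p of 0.05. Itgb5 is the diamond in both genotype comparisons, at -2.02 in vehicle and -1.77 with Dex.

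The genes with the array profile most like that of each TAM gene were taken as the 5 with the highest Pearson r over the 26 arrays after removal of group means. For Mertk these were Trappc12, Csf1, Trim9, Tsc22d3 and Tpd52l1, with r from 0.81 to 0.82. For Axl they were Limch1, Lingo1, Mgrn1, Slc9a3r1 and Zscan22 (0.89 to 0.92), and for Tyro3 Aox4, Zkscan6, Dpy19l2, Dek and Ccbe1 (0.70 to 0.73). For Gas6 they were Mrpl52, Grk6, Bak1, Msn and Traf7 (0.82 to 0.83). For Pros1 they were Trappc1, Hspa13, Swt1 and Chn1 (0.90 to 0.93) and 1 predicted locus. By the Dex difference over the 13 cultures, the genes most like Mertk were Tnpo1, Hip1, Klf15, Bcat1 and Ackr4, with r from 0.89 to 0.93. Without culture 4 these were 0.79, 0.93, 0.71, 0.68 and 0.81, so Hip1 alone of the 5 kept its value. The arrays of a culture and cluster are shared in all of these values.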

How the data were processed

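Levels of mouse genes were measured on 26 one-colour arrays hybridised with biotin-labelled cRNA. The deposited values are taken as log2 expression, because the values range from 2.22 to 19.81 with 2 decimals. Base and normalization are not given in the sources used here. Of 22206 transcript clusters, 19572 carry 1 gene symbol, 0 carry several, and 2634 carry none and were left out. All 19572 were matched to the reference by Entrez identifier. Where a gene had several, the one of highest mean was used, which left 19505 genes.

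limma 3.58.1 in R 4.3.3 fitted 1 mean for each of the 4 groups over all 26 arrays, with empirical Bayes moderation, no filter on low values, and Benjamini-Hochberg adjustment over all genes at a threshold of 0.05. For arrays, their number limits the precision. The labels give a vehicle and a Dex array the same biological sample number, which is taken here to mark the same culture. The vehicle and Dex arrays of a number correlated at 0.31 to 0.73 after removal of group means, and 22 of the 26 arrays matched their own number best. A fit with the culture as a block (fixed for Dex, random for genotype) is therefore given beside the main fit for some of the genes. The scripts were tested on simulated data.

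Members, lists, tests and alternatives were chosen with earlier results of these data known. The genes named are the 5 TAM genes, Sox2, 3 glucocorticoid-induced genes, list members past the threshold (up to 4) or of smallest p (up to 2), and the 5 nearest profiles. Itgav, Mfge8 and the culture-by-culture features singled out were chosen after their values were seen. Promoter sequences are RefSeq's on GRCm38.p6.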

Additional observations from a re-analysis of the deposited data

Results flagged for a closer look

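Of 30 groups of arrays or of Dex differences tested for a sample far from the others, 2 were singled out, and chance does so in about 1 in 20. The Mertk difference of WT culture 4 was -1.99, with the nearest other WT culture at 1.27. Mertk was chosen on its rise in the other WT cultures, so the rate of 1 in 20 does not apply to it. The Tyro3 difference of SOX2 KO culture 11 was -1.76, with the nearest other SOX2 KO culture at -0.43.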

How the results depend on the processing

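Of 253 tested values of the 5 TAM genes under settings other than leaving out 1 culture, 235 kept their direction and side of the threshold, 16 changed sign and 2 newly passed. The 2 are Mertk in SOX2 KO with the replicate block, at 1.47 without culture 4 (adjusted p = 0.018) and at 1.77 without cultures 4 and 12 (adjusted p = 0.000107), with 1 TAM gene passing in each fit. Both fits take part of their spread from the WT rise by which Mertk was chosen. The fit without cultures 4 and 12 also drops the only SOX2 KO culture where Mertk was lower with Dex. Neither fit can serve as support. Of 22 untested Mertk values, for Dex in WT and for the difference of the Dex effects, 1 changed sign. The replicate block alone changed no call of a TAM gene. Itgb5 passed in both genotype comparisons under every setting run. Settings chosen after seeing the data were the block in 1 genotype alone, without culture 12, and without cultures 4 and 12. The fit on only the groups compared was not run for the difference of the Dex effects.

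For Dex in SOX2 KO, 10 genes passed. With the replicate block the number was 49 without culture 4, 31 on SOX2 KO arrays alone, 16 without culture 12 and 66 without both. It was 18 with quantile normalization, 28 with array weights and 25 with the array cluster as a covariate. For Dex in WT, 0 genes passed, against 33 with the block and without culture 4, 58 without culture 12 as well, and 15 with array weights. For SOX2 KO against WT in vehicle, 109 genes passed, against 168 with quantile normalization (70 higher, 98 lower), 378 with array weights and 376 with the cluster covariate (188 higher, 188 lower, against 37 and 72). With Dex, 110 genes passed (36 higher, 74 lower), against 171 with quantile normalization (78 higher, 93 lower), 72 on only the groups compared, 561 with array weights and 397 with the cluster covariate (187 higher, 210 lower). The cause was not tested.

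No tested value whose sign turned was past the threshold. For Dex in SOX2 KO, Pros1 was 0.072 with quantile normalization, 0.0014 with median centring and 0.045 with array weights, and Axl 0.068 with array weights. For Dex in WT, Pros1 was 0.042 with the block and without culture 4 and also without culture 12, 0.012 with quantile normalization and 0.078 with array weights. For SOX2 KO against WT in vehicle, Mertk was 0.10 with the block and without culture 4. With Dex, Mertk was -0.061 in that fit and -0.016 with array weights, and Axl was 0.041 in that fit, 0.0053 with quantile normalization and 0.076 with the cluster covariate. For the difference of the Dex effects, Mertk was -0.16 and Pros1 -0.061 in that fit, and Pros1 -0.033 with array weights. Over all genes the median genotype difference with Dex moved to -0.11 with the filter on low means and with array weights.

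Leaving out each culture in turn gave 3 to 16 genes for Dex in SOX2 KO (most without culture 4, and 3 to 5 without any of cultures 7 to 13), with Tyro3 from -0.39 to 0.0017 and Pros1 from -0.065 to 0.027. For Dex in WT it gave 0 to 7 genes, with 7 without culture 4, Gas6 from -0.11 to 0.15 and Pros1 from -0.046 to 0.042. Between genotypes Mertk ran from -0.58 to 0.10 in vehicle and from -0.085 to 0.49 with Dex, Axl with Dex from -0.39 to 0.13, and the genes passing with Dex from 69 (without culture 1) to 160. For the difference of the Dex effects Mertk ran from -0.16 to 0.75, Axl from -0.10 to 0.23 and Pros1 from -0.061 to 0.047. With no detection calls in the table, no level here could be set against background, and the 13 cultures limit what could pass.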
